A study of Mus musculus with 16 samples.

Results

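Fc receptors bind the constant region of antibodies. The 7 genes described here, of 54347 in the count table, were taken by symbol: Fcgr1, Fcgr2b, Fcgr3 and Fcgr4, which encode the mouse receptors for IgG; Fcer1g, which encodes the signaling chain of the activating ones; Fcer2a, which encodes the low-affinity IgE receptor Cd23; and Fcgrt, which encodes the heavy chain of the neonatal Fc receptor. Expression was measured by poly(A) RNA-seq in 2 sorted bone marrow populations, LSKs (Lin-Sca-1+c-Kit+, the gate that holds stem cells and multipotent progenitors) and GMPs, progenitors of granulocytes and monocytes (sorted as c-Kit+Cd16/32+ cells without lineage markers or Sca-1). Donors were wild-type (WT) mice or their UREΔ littermates on a C57BL/6 background, 8 to 12 weeks old, with 4 libraries in each of the 4 groups WT LSK, UREΔ LSK, WT GMP and UREΔ GMP. UREΔ animals lack an upstream regulatory element of Spi1, the gene of the transcription factor PU.1, in every cell, so that cells reaching either gate had already developed with the deletion.

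Activating Fc gamma receptors (Fcgr1, Fcgr3 and Fcgr4) have no signaling motif of their own and pass the signal through the ITAM of the Fc receptor gamma chain, Fcer1g. Src-family kinases phosphorylate this motif and Syk is recruited to it. Fcgr2b is the sole inhibitory receptor of the family, carries an ITIM and recruits the lipid phosphatase SHIP-1. Fcgrt works apart from these: it pairs with beta-2 microglobulin and returns IgG taken up into endosomes to the surface. On myeloid progenitors, Fcgr3 and Fcgr2b are best known as the antigen Cd16/32, since the usual sorting antibody binds both proteins. The GMP gate therefore selects on the products of these 2 genes, whereas the LSK gate does not use them, and any GMP to LSK difference in their RNA within a genotype is given below as a description with no test.

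Spi1 itself was lower in UREΔ cells of both gates. Its coding exons are present in UREΔ cells, so its RNA reads out the element's loss. In LSKs it was 124 ± 40.0 CPM (counts scaled to library size; SD, n = 4) in WT and 3.02 ± 1.42 CPM in UREΔ libraries, 2.43% of the WT mean (edgeR log2 fold change -5.39, SE 0.47, adjusted p = 0.00027). GMPs held 140 ± 40.5 CPM in WT and 21.3 ± 5.96 CPM in UREΔ libraries, 15.2% of WT (log2 fold change -2.73, SE 0.30, adjusted p = 0.00095). Library totals ran from 20028302 to 29128858 assigned counts. Of 8 stem and progenitor genes, 8 were called lower in GMPs than in LSKs of either genotype. Over all genes tested, 2335 of 14767 were called lower in WT and 1808 of 14395 in UREΔ. The 8 include Ly6a, which encodes the Sca-1 that both gates were sorted on. The summed level of 9 neutrophil progenitor genes, most of it Mpo, was 55396 to 70882 CPM in WT GMPs against 1035 to 1646 CPM in WT LSKs. These genes were thus where the cell type labels place them.

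Fcgr2b, Fcgr4 and Fcgr3 lie within 106 kb of chromosome 1 (GRCm38, GENCODE M21): Fcgr2b at chr1:170958617-170976547 on the minus strand, Fcgr4 at chr1:171018920-171029761 on the plus strand and Fcgr3 at chr1:171051174-171064935 on the minus strand. Fcer1g follows at chr1:171229572-171234365 (minus). The other 3 are elsewhere: Fcgr1 at chr3:96282909-96293969, Fcgrt at chr7:45092990-45103851 and Fcer2a at chr8:3681737-3694175, all on the minus strand. Fcgr2b and Fcgr3 are close copies, which matters here because their RNA behaved differently. Of the 1733 distinct 31-base words in Fcgr3 transcripts, 233 (13.4%) also occur in Fcgr2b transcripts, where they are 4.15% of 5609. The longest run they hold in common is 129 bases of coding sequence, spread over 2 exons of each gene (transcript positions 402 to 530 of Fcgr2b-201 and 313 to 441 of Fcgr3-201). It is shown because reads that fall wholly inside it cannot be assigned to either gene on sequence alone:
Fcgr2b and Fcgr3, shared run: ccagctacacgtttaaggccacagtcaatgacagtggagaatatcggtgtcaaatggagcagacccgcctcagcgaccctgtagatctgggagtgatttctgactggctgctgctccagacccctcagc
Outside such runs the transcripts differ. No 31-base word is common to any other pair of the 7 genes. Beyond the 7, transcripts of other genes held 224 of the Fcgr2b words (3.99%, either strand), none of the Fcgr3, Fcgr1 and Fcer1g words, and 1.39% to 1.97% of those of Fcgr4, Fcgrt and Fcer2a. The libraries were unstranded, and Fcgr2b overlaps an antisense gene, Gm38204, over 155 exonic bases; Gm38204 had at most 1 count in any library.

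The start-site windows of the 2 genes (RefSeq, GRCm38.p6, 250 bases before to 50 after the start, read 5′ to 3′ on the gene's strand) are shown because the ratio of Fcgr2b to Fcgr3 differed in UREΔ cells; all 7 genes had a window in this set. Capitals mark GAGGAA, the core of the PU.1 motif, here met as TTCCTC on the opposite strand. The Fcgr3 window is the first of 2 that RefSeq gives, chr1:171059354-171059653, inside the longer GENCODE model, and the Fcgr2b window is chr1:170976022-170976321:
Fcgr3: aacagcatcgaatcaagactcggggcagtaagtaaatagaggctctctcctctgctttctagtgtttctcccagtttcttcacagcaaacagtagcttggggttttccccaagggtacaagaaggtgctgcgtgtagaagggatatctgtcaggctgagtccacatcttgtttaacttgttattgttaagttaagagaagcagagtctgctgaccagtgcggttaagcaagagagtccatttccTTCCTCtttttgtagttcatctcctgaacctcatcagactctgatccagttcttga
Fcgr2b: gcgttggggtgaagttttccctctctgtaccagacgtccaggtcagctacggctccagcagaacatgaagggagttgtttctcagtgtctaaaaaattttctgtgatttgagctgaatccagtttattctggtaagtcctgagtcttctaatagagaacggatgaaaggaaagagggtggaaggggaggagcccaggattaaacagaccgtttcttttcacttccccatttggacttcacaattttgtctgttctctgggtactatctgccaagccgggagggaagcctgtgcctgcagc
The Fcgr3 window held 1 GAGGAA, 6 bases before the start (15 bases before that of the second window, which overlaps the first), and the Fcgr2b window held none. Fcgr4 and Fcgr1 each had 1 GAGGAA as well, 22 and 55 bases before the start, and the 20 bases on either side are set out below for the 3 genes (chr1:171059384-171059429 for Fcgr3, chr1:171018884-171018929 for Fcgr4 and chr3:96293999-96294044 for Fcgr1):
Fcgr3: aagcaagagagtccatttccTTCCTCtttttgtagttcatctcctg
Fcgr4: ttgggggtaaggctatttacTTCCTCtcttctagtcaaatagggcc
Fcgr1: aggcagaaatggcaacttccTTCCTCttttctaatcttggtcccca
None of the Fcer1g, Fcer2a and Fcgrt windows held these letters on either strand. Across 32851 mouse promoter windows of the same length, 28.3% held GAGGAA. The core of the RUNX motif, TGTGGT, was found in the windows of Fcgr4 (2 matches), Fcer1g (1) and Fcer2a (1 match in 1 of its 3 windows) and in 16.8% of all windows. The shorter GGAA, which is part of the longer motif, occurs in 96% of windows and in that of every Fc receptor gene. These matches are letters in a window and were not compared with binding.

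Scaled per kilobase of exon, which allows genes to be compared, the order of the levels differed between the gates. WT LSKs held most Fcer1g (50.0 CPM per kb, libraries 33.8 to 62.1), then Fcgrt (26.8, 23.7 to 30.8), Fcgr3 (6.25, 4.89 to 7.53) and Fcgr2b (2.33, 2.04 to 2.50), and the libraries of these 4 genes did not overlap. Fcer2a (0.588), Fcgr1 (0.491) and Fcgr4 (0.331 CPM per kb) came last, with overlapping libraries. In WT GMPs Fcgr3 (185 CPM per kb, 132 to 244) and Fcer1g (162, 104 to 240) led and overlapped, ahead of Fcgr2b (15.4, 14.4 to 16.6) and Fcgrt (7.0, 5.81 to 9.07), while Fcgr4 was at 1.48, Fcgr1 at 0.556 and Fcer2a at 0.0246 CPM per kb. The order changed in UREΔ LSKs mainly for Fcgr2b, which came next after Fcgr3 in WT and was last at 0.0849 CPM per kb (0 to 0.177), below Fcer2a at 0.219, although the libraries of the last 4 genes overlapped.

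**Figure D1:**
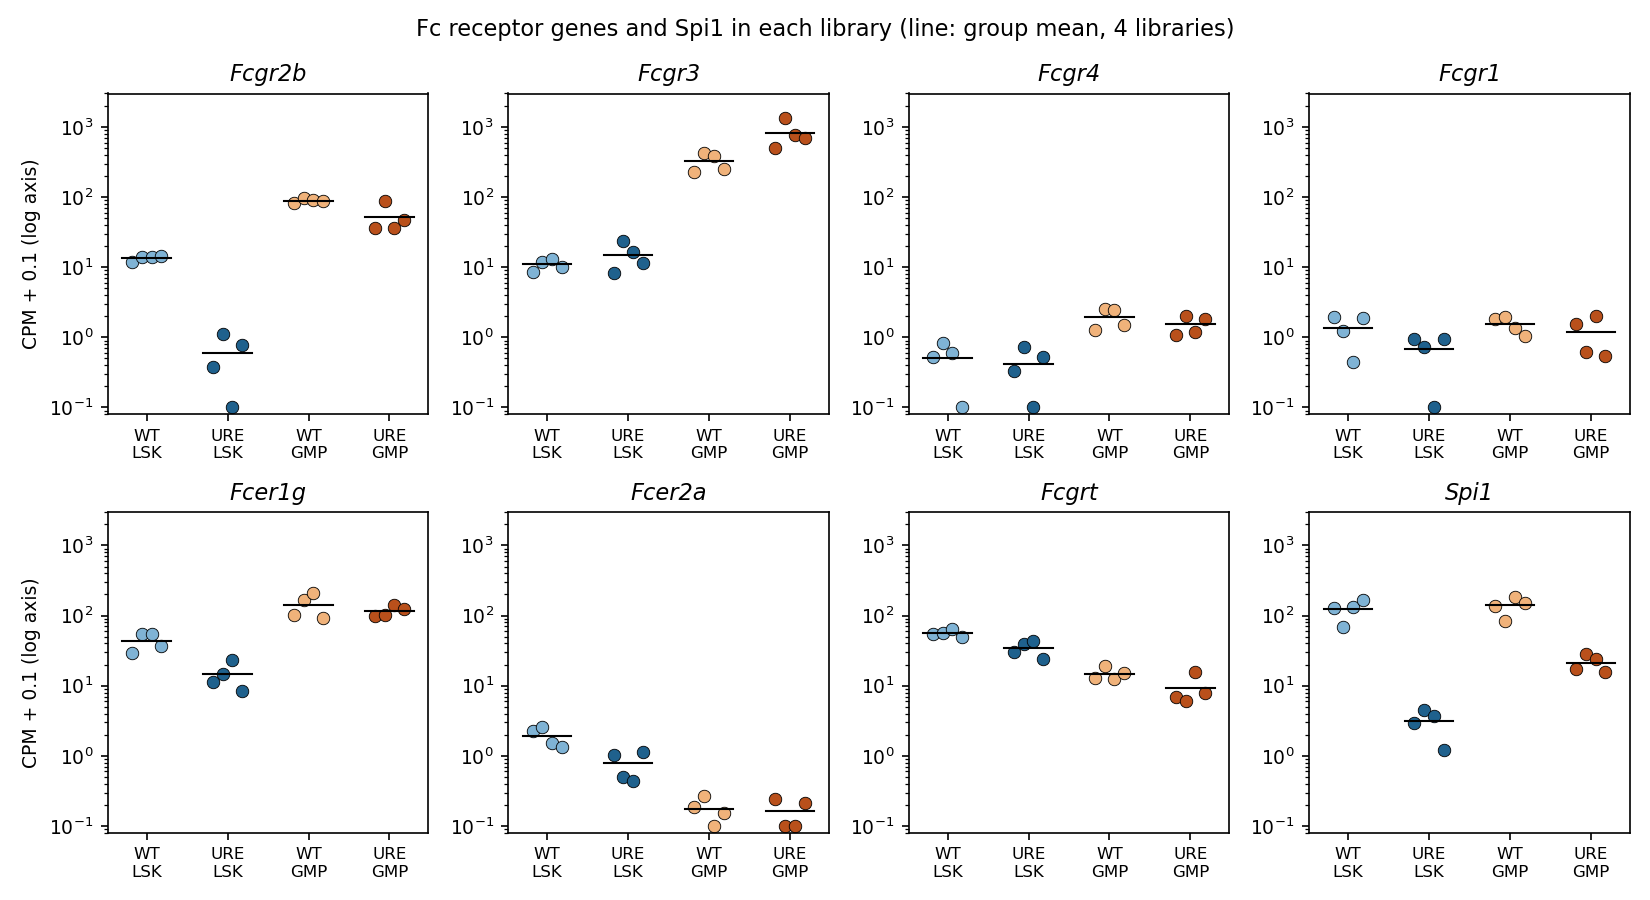
Level of each Fc receptor gene and of Spi1 in the 16 libraries, as CPM + 0.1 on a log axis, with 4 points per group and a line at the group mean. In LSKs the UREΔ points of Fcgr2b (0 to 1.03 CPM) lie far below the WT points (11.8 to 14.5 CPM) while those of Fcgr3 overlap, and in GMPs the UREΔ points of Fcgr3 (508 to 1328 CPM) lie above the WT points (228 to 424 CPM).

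The comparison of UREΔ with WT LSKs asks which Fc receptor RNAs differed with loss of the element in cells upstream of the GMP gate. The inhibitory receptor Fcgr2b and the signaling chain Fcer1g fell, and no member rose. All 7 genes passed the filter on low counts, and 2 of the 7 were called, that is, had an adjusted p below 0.05 and a fold change above 1.5 (edgeR quasi-likelihood test); 6.14% of the 15154 genes tested were called and 3.76% were called lower. The median log2 fold change of the 7 was -1.15, against 0.00093 over all genes tested. UREΔ and WT libraries did not overlap for Fcgr2b, Fcer1g, Fcer2a and Fcgrt, each lower in UREΔ; 12.6% of all genes had groups that did not overlap, and 6.9% did so with UREΔ lower.

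Fcgr2b counts in WT LSKs were 369, 408, 357 and 360, or 11.8, 13.7, 13.9 and 14.5 CPM. The UREΔ libraries held 7, 31, 0 and 16 counts, or 0.273, 1.03, 0 and 0.668 CPM. The WT libraries were close to each other and all far above the highest UREΔ library. The UREΔ mean was 3.65% of the WT mean, and the log2 fold change was -4.77 (SE 0.78, adjusted p = 0.0064). This call held without any single library, with log2 fold changes between -5.43 and -4.37. Fcgr2b passed the low-count filter through its WT libraries. Only 86 of the 15154 genes tested had a more negative log2 fold change. Fewer cells that express a gene and less RNA per cell cannot be told apart in these bulk libraries.

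Fcgr3, its close copy in the same cluster, was read from the same libraries at 8.48, 11.8, 13.1 and 10.0 CPM in WT LSKs. The UREΔ libraries held 8.06, 23.2, 16.2 and 11.4 CPM, and the groups overlapped. The log2 fold change was 0.41 (SE 0.34, adjusted p = 0.72). UREΔ replicate 3, where Fcgr2b, Fcgr1 and Fcgr4 were all listed at 0 counts, had 385 counts of Fcgr3. A count of 0 in that library allows up to 0.126 CPM (3 counts, counting error only).

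The ratio of the 2 genes within a library does not depend on library scaling. WT LSKs held 139, 116, 107 and 145 Fcgr2b counts per 100 Fcgr3 counts, and UREΔ LSKs held 3.38, 4.42, 0 and 5.84. Every WT library had more Fcgr2b than Fcgr3 counts, and no UREΔ library came near. The log2 ratio (0.5 added to each count) was 0.33 ± 0.21 in WT and -5.73 ± 2.59 in UREΔ libraries (SD, n = 4), a difference of -6.06 (SE 1.30; exact two-sided permutation test, p = 0.0286, which is the smallest that 4 against 4 can give; adjusted over the 2 cell types, 0.0286). This test takes no account of the same-numbered pairs. UREΔ was lower in 4 of 4 pairs, for which an exact sign-flip test gave p = 0.125, the smallest that 4 pairs allow. The library with 0 Fcgr2b counts weighs on this value, and without it the difference was -4.77.

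Fcer1g, the chain on which the activating receptors depend, was at 29.6, 53.7, 54.3 and 37.2 CPM in WT LSKs. UREΔ LSKs held 11.3, 14.6, 23.4 and 8.40 CPM. All UREΔ libraries were below all WT libraries, the UREΔ mean was 33.1% of WT, and the log2 fold change was -1.63 (SE 0.35, adjusted p = 0.024). The call was lost when any 1 of 5 libraries was left out (UREΔ replicates 1, 2 and 4 and WT replicates 2 and 3; adjusted p 0.057 to 0.083), while the log2 fold change stayed between -1.96 and -1.44. With same-numbered libraries as a block the adjusted p was 0.0017. Fcgr3, whose protein needs this chain to reach the surface, was not called, and there were 0.220 to 0.287 Fcgr3 counts per Fcer1g count in WT LSKs and 0.691 to 1.59 in UREΔ LSKs.

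Fcgrt, the neonatal receptor, was at 55.4, 55.5, 64.7 and 49.9 CPM in WT LSKs and at 30.0, 39.7, 43.3 and 24.1 CPM in UREΔ LSKs. The groups did not overlap, but the log2 fold change of -0.75 (SE 0.22) had an adjusted p of 0.097; with the replicate block it was -0.78 (SE 0.15, adjusted p = 0.016) and was called. Fcer2a had few reads, 67, 74, 36 and 31 counts in WT and 24, 12, 8 and 25 in UREΔ LSKs, and its log2 fold change of -1.45 (SE 0.50) was not called (adjusted p = 0.16). Fcgr1, the high-affinity IgG receptor, had 57, 34, 9 and 44 counts in WT and 22, 19, 0 and 20 in UREΔ LSKs (log2 fold change -1.15, SE 0.87, adjusted p = 0.68). Fcgr4 had 13, 22, 13 and 0 counts in WT and 6, 19, 0 and 10 in UREΔ LSKs (log2 fold change -0.40, SE 1.04, adjusted p = 0.96). Within the WT group Fcgr1 ran from 9 to 57 and Fcgr4 from 0 to 22 counts, and the genotypes overlapped for both genes.

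In GMPs, cells past the Cd16/32 gate, Fcgr3 was higher in UREΔ cells and Fcgr2b was the member with the lowest fold change, short of the threshold. Of the 7 genes 6 passed the filter and 1 was called, Fcgr3, against 8.3% of 13829 genes called and 4.67% called higher. The median log2 fold change of the 6 was -0.40, against 0.0052 over all genes tested. Both genotypes were sorted on the antigen that these 2 genes encode, so their RNA in GMPs is read among cells already chosen for the protein.

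Fcgr3 stood at 228, 424, 387 and 248 CPM in WT GMPs. UREΔ GMPs held 508, 1328, 763 and 696 CPM. The lowest UREΔ library was above the highest WT library, although UREΔ replicate 2 was far above the other 3. Groups that do not overlap were found for 14.8% of genes in this comparison, and for 7.85% with UREΔ higher. The UREΔ mean was 2.56 times the WT mean (log2 fold change 1.34, SE 0.32, adjusted p = 0.033). The call was narrow: without any 1 library other than UREΔ replicate 1 the adjusted p was 0.051 to 0.097, with log2 fold changes of 1.0 to 1.48, and without UREΔ replicate 1 the log2 fold change was 1.51 (adjusted p = 0.026). With the replicate block the adjusted p was 0.0011. Fcgr3 was higher in UREΔ than in WT in 4 of 4 same-numbered pairs.

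Fcgr2b was at 83.4, 96.1, 90.4 and 87.0 CPM in WT GMPs and at 36.6, 87.1, 36.0 and 47.6 CPM in UREΔ GMPs. Replicate 2 of UREΔ, which was also highest for Fcgr3, reached the WT range and the other 3 did not. Its summed level of 8 monocyte genes was 701 CPM, against 83.2 to 123 CPM in those 3. The log2 fold change was -0.80 (SE 0.27, adjusted p = 0.12). It was -0.89 with the replicate block (SE 0.20, adjusted p = 0.022) and -1.18 without UREΔ replicate 2 (adjusted p = 0.0074), and it was called in both.

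Within a library the pair separated the genotypes in GMPs too. There were 36.5, 22.7, 23.3 and 35.1 Fcgr2b counts per 100 Fcgr3 counts in WT GMPs and 7.21, 6.56, 4.72 and 6.84 in UREΔ GMPs. UREΔ replicate 2, the highest of its group on both genes, was in the middle of its group on their ratio. The log2 ratio was -1.80 ± 0.37 in WT and -4.00 ± 0.28 in UREΔ libraries (SD, n = 4), a difference of -2.20 (SE 0.23; exact two-sided permutation test without the pairs, p = 0.0286; adjusted, 0.0286). Over the 4 pairs, all lower in UREΔ, the exact sign-flip test again gave its smallest p of 0.125.

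**Figure D2:**
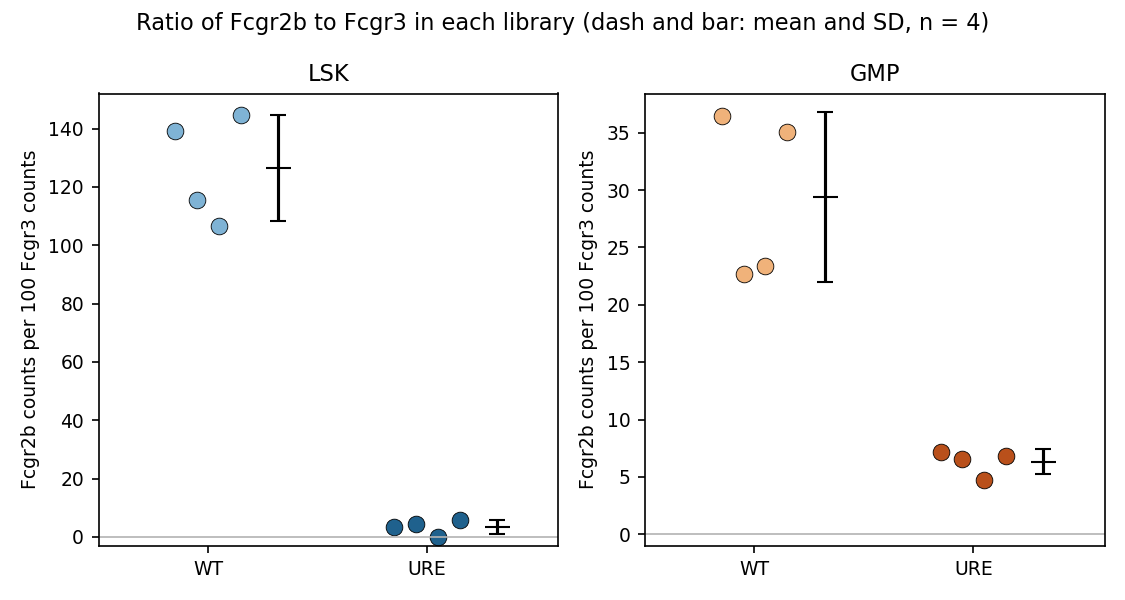
Fcgr2b counts per 100 Fcgr3 counts in each library, LSKs on the left and GMPs on the right on separate linear axes, with the mean and SD of 4 libraries beside the points. WT LSKs lie between 107 and 145 and UREΔ LSKs between 0 and 5.84, and WT GMPs lie between 22.7 and 36.5 and UREΔ GMPs between 4.72 and 7.21.

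No other member was called between the genotypes in GMPs. Fcer1g was at 100, 166, 210 and 91.1 CPM in WT and at 99.6, 101, 141 and 122 CPM in UREΔ GMPs, with the UREΔ libraries inside the WT range (log2 fold change -0.30, SE 0.29, adjusted p = 0.66). Fcgr3 counts per Fcer1g count were 1.85 to 2.72 in WT and 5.10 to 13.2 in UREΔ GMPs. Fcgrt was at 12.7, 19.1, 12.2 and 14.9 CPM in WT and at 6.84, 5.90, 15.8 and 7.82 CPM in UREΔ GMPs, where replicate 3 overlapped WT and the other 3 did not (log2 fold change -0.69, SE 0.35, adjusted p = 0.31; without that library -1.14, adjusted p = 0.030). Fcgr4, with 27 to 59 counts in WT and 20 to 37 in UREΔ GMPs, had a log2 fold change of -0.39 (SE 0.39, adjusted p = 0.67). Fcgr1, with 18 to 44 and 8 to 37 counts, had -0.41 (SE 0.52, adjusted p = 0.75). Fcer2a was nearly unread in GMPs, at 7 counts over the 4 WT and 5 over the 4 UREΔ libraries, and was not tested.

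Whether the UREΔ difference itself differed between the cell types was tested in an interaction of genotype with cell type over the 16 libraries. It was called for Fcgr2b, whose difference was less negative in GMPs by 3.95 on the log2 scale (SE 0.74, adjusted p = 0.017); 1.22% of 15935 genes were called in this test. For Fcgr2b and Fcgr3 the GMP side of this value is read in cells sorted on their products, and the part of the sort in it cannot be told apart from the rest. It kept the call without any single library (3.55 to 4.62) and lost it in replicates 2 and 3 alone, where the value was 4.04 (adjusted p = 0.72) and 2 genes of all were called. For Fcer1g the value was 1.31 (SE 0.46, adjusted p = 0.22) and for Fcgr3 0.91 (SE 0.47, adjusted p = 0.49). Both were called with the replicate block, at 1.44 (SE 0.27, adjusted p = 0.0068) and 0.97 (SE 0.21, adjusted p = 0.017). Spi1 had an interaction of 2.64 (SE 0.52, adjusted p = 0.022), its mean UREΔ level in GMPs being 7.05 times that in LSKs while the WT groups overlapped.

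**Figure D3:**
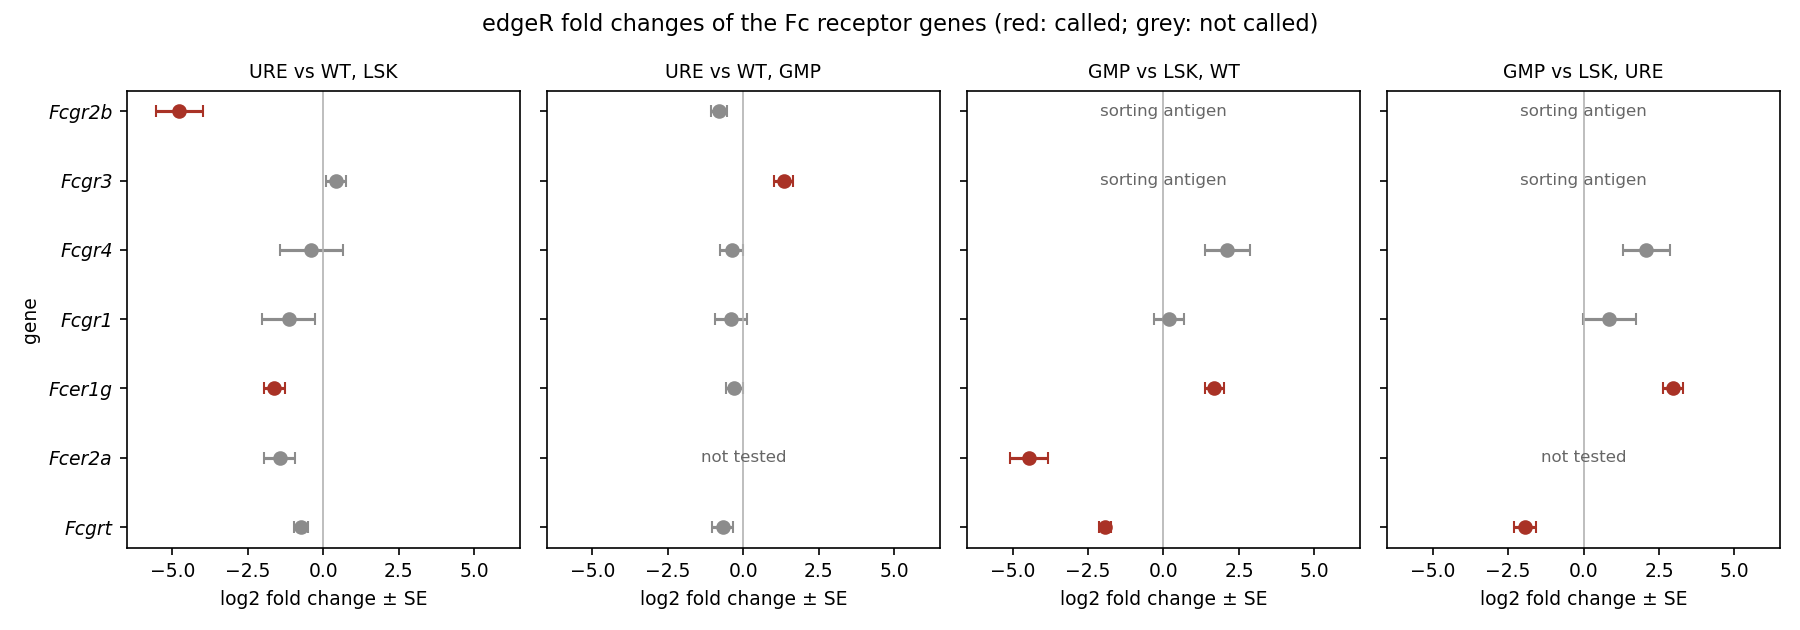
edgeR log2 fold change and standard error of each Fc receptor gene in 4 comparisons, red where called and grey where not. Fcgr2b (-4.77) and Fcer1g (-1.63) are called in LSKs and Fcgr3 (1.34) in GMPs; Fcgr2b and Fcgr3 are left out of the GMP to LSK panels because the GMP gate selects on their products, and Fcer2a is left out where it was not tested.

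Between the cell types, the sorting antigen genes are given first and without a test. Fcgr3 rose from a mean of 10.9 CPM in WT LSKs to 322 CPM in WT GMPs, and from 14.7 to 824 CPM in UREΔ. Fcgr2b stood at 13.5 and 89.2 CPM in WT LSKs and GMPs, and at 0.492 and 51.8 CPM in UREΔ. GMP libraries were above LSK libraries for both genes in both genotypes, without overlap. Thus Fcgr2b, nearly unread in UREΔ LSKs, was read at 703 to 1669 counts in every UREΔ GMP library.

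Of the 5 members outside the gate, 3 were called between WT GMPs and WT LSKs, where 27.3% of 14767 genes were called; Fcer2a, 1 of the 3, passed the filter through its LSK libraries alone. Between UREΔ GMPs and UREΔ LSKs 4 of the 5 could be tested and 2 were called, where 21.8% of 14395 genes were. Over the 4 members tested in both genotypes the median log2 fold change was 0.93 in WT and 1.47 in UREΔ, and that of all genes tested was -0.09 in both; with Fcer2a, tested in WT alone, the WT median was 0.17. Fcer1g was higher in GMPs in WT (log2 fold change 1.69, SE 0.32, adjusted p = 0.0045) and in UREΔ (2.96, SE 0.33, adjusted p = 0.00040). Fcgrt was lower in GMPs by nearly the same amount in WT (-1.95, SE 0.20, adjusted p = 0.00022) and in UREΔ (-1.95, SE 0.36, adjusted p = 0.0048), and the interaction for it was 0.02 (SE 0.41). Leaving out replicates 1 and 4 of both UREΔ groups ended the second of these calls, at a log2 fold change of -1.91 (adjusted p = 0.065).

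Fcer2a was lower in WT GMPs than in WT LSKs (log2 fold change -4.45, SE 0.63, adjusted p = 0.0011), with at most 4 counts in a WT GMP library. GMP libraries of Fcgr4 lay above LSK libraries in both genotypes, at 27 to 59 counts in WT GMPs against 0 to 22 in WT LSKs. Its log2 fold changes of 2.12 (SE 0.74, adjusted p = 0.059) and 2.08 (SE 0.78, adjusted p = 0.088) missed the threshold, and both were called with the replicate block (adjusted p = 0.011 and 0.028). Groups without overlap made up 31.4% and 26.6% of all genes in these comparisons. Fcgr1 had log2 fold changes of 0.17 (SE 0.49) in WT and 0.86 (SE 0.89) in UREΔ, neither called (adjusted p = 0.84 and 0.53).

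The genes that carry Fc receptor signals were then read in lists of textbook members. Of 22 genes of activating signaling, all tested, 2 fell and 1 rose in UREΔ LSKs and 2 fell and 1 rose in UREΔ GMPs. Over all genes tested 6.14% were called in LSKs and 8.3% in GMPs, and these counts are not read as a result about the list. The activating genes had median log2 fold changes of -0.18 and -0.31. Pik3r5, a regulatory subunit of the PI3-kinase gamma complex, fell in both (LSK -2.97, SE 0.63, adjusted p = 0.022; GMP -4.81, SE 0.87, adjusted p = 0.0094), from low levels of 6.44 ± 4.78 and 4.94 ± 3.72 CPM in WT. In GMPs it passed the filter through its WT libraries alone, UREΔ GMPs holding 0 to 0.394 CPM, so that its fold there is over counts near 0. The adaptor Lat2 rose in LSKs (1.02, SE 0.23, adjusted p = 0.028) and the adaptor Lcp2 rose in GMPs (0.94, SE 0.16, adjusted p = 0.0061). Syk, the kinase that binds the phosphorylated ITAM, was at 97.2 ± 36.3 CPM in WT and 59.8 ± 29.9 CPM in UREΔ LSKs and was not called.

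Of 12 genes of inhibitory signaling, 1 fell and 1 rose in UREΔ LSKs and 1 fell in UREΔ GMPs, against the same shares over all genes, with median log2 fold changes of 0.09 and -0.02. Ptpn6, the phosphatase SHP-1, fell in both (LSK -1.27, SE 0.16, adjusted p = 0.0015; GMP -0.66, SE 0.17, adjusted p = 0.043), from 320 ± 37.4 to 135 ± 18.8 CPM in LSKs. Dok2, an adaptor that restrains Ras, rose in LSKs (1.40, SE 0.26, adjusted p = 0.011), from 102 ± 12.7 to 276 ± 103 CPM. Inpp5d, which encodes the SHIP-1 that Fcgr2b recruits, was at 222 ± 91.8 CPM in WT and 276 ± 134 CPM in UREΔ LSKs and was not called.

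Other immunoglobulin receptors and partner chains made a list of 15, of which 6 were tested in LSKs and 7 in GMPs; 2 fell in LSKs, and 2 fell and 1 rose in GMPs (6.14% and 8.3% of all genes were called). Tyrobp, which encodes DAP12, an ITAM adaptor of the same kind as Fcer1g, fell in LSKs from 24.9 ± 9.70 to 3.09 ± 0.797 CPM (log2 fold change -3.04, SE 0.35, adjusted p = 0.00098) and was at 117 ± 58.9 and 28.3 ± 22.5 CPM in WT and UREΔ GMPs (-2.08, SE 0.57, adjusted p = 0.056). Fcrl1, an Fc receptor-like gene of B cells, fell in both (LSK -2.60, GMP -2.87; adjusted p = 0.0035 and 0.0048), and in GMPs it passed the filter through its WT libraries alone (1.56 to 3.47 CPM in WT and 0.145 to 0.394 CPM in UREΔ). Ms4a2, the beta chain of the high-affinity IgE receptor, fell in GMPs from 74.1 ± 14.4 to 9.76 ± 7.59 CPM (-2.92, SE 0.63, adjusted p = 0.021), and Cd247, the zeta chain, rose there from 0.393 ± 0.166 to 2.11 ± 0.681 CPM (2.41, SE 0.44, adjusted p = 0.0094), having passed the filter through its UREΔ libraries. Between WT LSKs and WT GMPs 7 genes of the list were tested, with 3 called higher and 3 lower in GMPs (27.3% of all genes were called). Ms4a2 (5.35) and the alpha chain Fcer1a (3.91) of the same IgE receptor were among the higher ones (adjusted p = 1.6e-05 and 0.00076). Fcer1a passed the filter through its GMP libraries alone (2.08 to 7.73 CPM in WT GMPs and 0.128 to 0.402 CPM in WT LSKs).

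Between the cell types, of the 22 activating genes, 1 was higher and 3 lower in WT GMPs than in WT LSKs, and 5 were lower and 0 higher in UREΔ GMPs than in UREΔ LSKs. Of all genes tested 27.3% were called in the first and 21.8% in the second comparison, and the counts of the list are near these shares. Plcg1, a phospholipase downstream of Syk, was lower in both (-1.05 and -1.70; adjusted p = 0.011 and 0.0015). Of the 12 inhibitory genes, 1 was higher and 2 lower in WT and 1 higher and 3 lower in UREΔ, with Dok3 the higher gene in both (2.18 and 1.59; adjusted p = 0.0016 and 0.012).

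**Figure D4:**
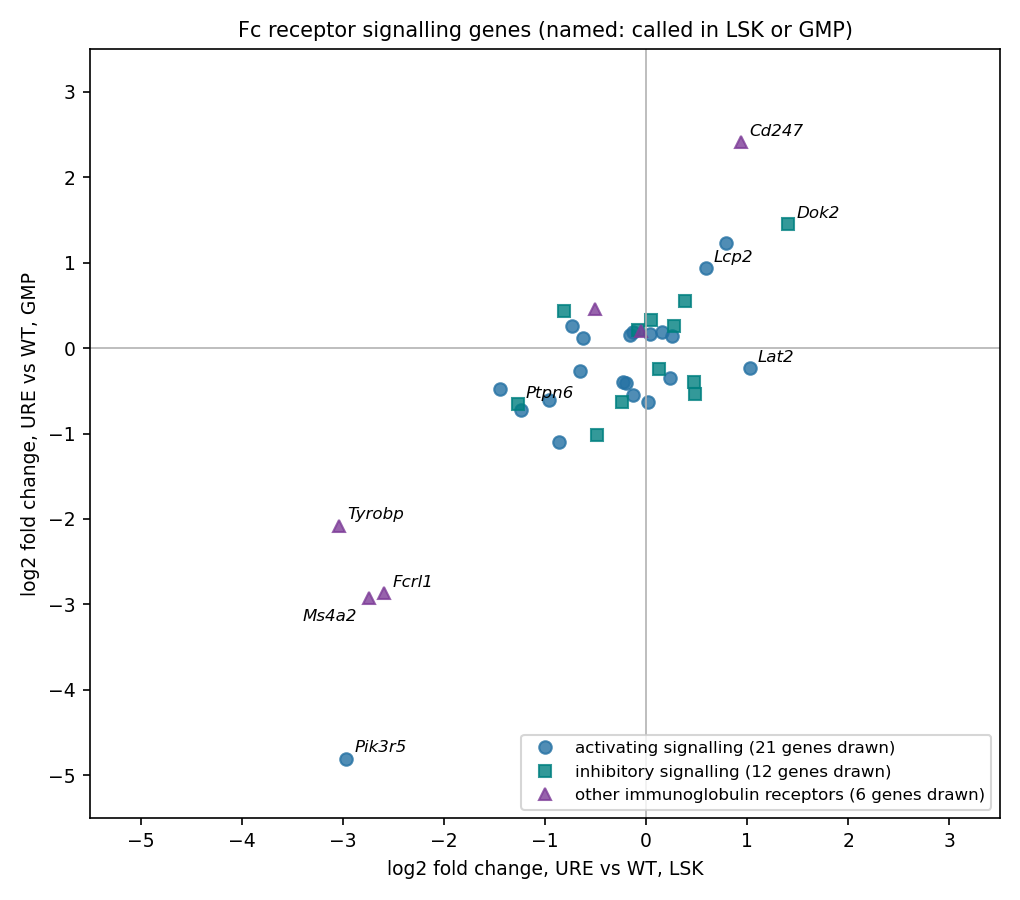
log2 fold change of UREΔ against WT in LSKs (x axis) and in GMPs (y axis) for genes of activating signaling (21 of 22 drawn), inhibitory signaling (12) and other immunoglobulin receptors (6 tested in both); genes called in either cell type are named. Pik3r5, Fcrl1, Ms4a2 and Tyrobp lie at the lower left and most of the remaining points lie near 0.

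Markers of mature and committed cells were read in the same libraries. The summed level of 8 monocyte genes was 56.8 to 115 CPM in WT and 11.1 to 21.7 CPM in UREΔ LSKs, and 1303 to 1994 CPM in WT and 83.2 to 701 CPM in UREΔ GMPs; the upper end is UREΔ replicate 2 alone, and the other 3 libraries reached 123 CPM at most. Of these genes 4 of 7 tested were called lower in LSKs and 5 of 8 in GMPs, among them Csf1r and Irf8. Over all genes tested, 570 were called lower and 360 higher of 15154 in LSKs, and 502 and 646 of 13829 in GMPs. Ly86 and Cx3cr1 in LSKs and Klf4 in GMPs passed the filter through their WT libraries. F13a1 was the largest part of the monocyte sums in GMPs, at means of 978 CPM in WT and 139 CPM in UREΔ. The 9 neutrophil progenitor genes summed to 73652 to 159800 CPM in UREΔ GMPs, all above the 55396 to 70882 CPM of WT GMPs, with 1 called higher and 1 lower. Most of these sums was Mpo, at means of 50493 CPM in WT and 91745 CPM in UREΔ GMPs. In LSKs their sums overlapped (932 to 1746 CPM in UREΔ and 1035 to 1646 CPM in WT), Mpo making up most of them, but 2 genes were called higher and 1 lower. Ngp, a granule gene, had means of 26.5 CPM in WT and 140 CPM in UREΔ LSKs, and Prtn3, which encodes proteinase 3, 213 and 38.8 CPM.

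The 6 eosinophil genes summed to 562 to 1221 CPM in WT and 63.6 to 288 CPM in UREΔ GMPs. Of the 6, 5 were called lower (502 of all 13829 genes were). Il5ra, Ear1 and Ear6 passed the filter through their WT libraries. In UREΔ GMPs Il5ra was at 0, Ear1 at 0 to 0.313 CPM and Ear6 at 0.0482 to 0.844 CPM. In LSKs none of the 2 tested was called. The 8 dendritic cell genes summed to 209 to 319 CPM in WT and 17.4 to 51.6 CPM in UREΔ GMPs, with 4 of 5 called lower (502 of all 13829 genes were). In LSKs the dendritic cell genes summed to 250 to 647 and 84.1 to 295 CPM, with 1 of 5 called lower (570 of all 15154 genes were). Cd74 and the class II gene H2-Ab1 made up most of these sums (means of 128 and 86.9 CPM in WT GMPs), whereas Siglech, Itgax, Cd209a and Batf3 had means of 0.426 to 1.47 CPM there. The 8 B-cell genes summed to 59.1 to 87.9 CPM in WT and 26.8 to 42.8 CPM in UREΔ LSKs, and to 63.7 to 91.8 and 11.3 to 29.9 CPM in GMPs. Most of these sums was Cd79b, a chain of the B-cell receptor complex, at means of 66.1 and 29.5 CPM in LSKs, and it was the gene of the list called lower in either cell type. Cr2 had means of 2.10 CPM in WT and 2.73 CPM in UREΔ LSKs, and the defining gene Pax5 was at 0 in UREΔ LSKs and at 0 to 0.192 CPM in WT LSKs.

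The 6 natural killer cell genes summed to 563 to 976 CPM in WT and 1352 to 2227 CPM in UREΔ GMPs, nearly all of it Nkg7, the 1 gene of 2 tested that was called, while the defining gene Ncr1 had means of 0.0104 CPM in WT and 0.133 CPM in UREΔ GMPs. Of 8 mast cell and basophil genes, 2 were called higher in LSKs, and 1 higher and 2 of 6 lower in GMPs, with sums that overlapped between the genotypes in both cell types. Over all genes 6.14% were called in LSKs and 8.3% in GMPs. The sums of 8 macrophage, 7 erythroid and 6 megakaryocyte genes overlapped in both cell types as well, with 1 macrophage gene, Adgre1, called lower in UREΔ GMPs and 1 megakaryocyte gene, Itga2b, called higher in UREΔ LSKs. Monocytes, eosinophils, dendritic cells, mast cells and natural killer cells are among the cells known to express Fcer1g, Fcgr3 or Fcgr2b, and both sorts, on c-Kit+ cells without lineage markers, are meant to leave out mature cells. The part of any of these cells in the differences of Fcgr2b, Fcer1g and Fcgr3 was not tested.

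Genes whose pattern over the 16 libraries was most like that of a member were taken by Pearson's r of log2 CPM, among 9468 or 9469 genes with a mean of 8 CPM or more; the libraries fall into 4 groups, so r mostly reads the group means and is given as a description. Fcgr3 was closest to Ly6c2 (0.99), Ctsg (0.99) and Gla (0.99), and Ctsg, which encodes cathepsin G, is a neutrophil granule gene of the list above. Fcgr2b was closest to Ncf4 (0.97), a subunit of the phagocyte NADPH oxidase, to the chemokine receptor gene Cx3cr1 (0.97), a monocyte gene of the list above, and to Cd300lb (0.96). Fcer1g was closest to Lgals1 (0.98), Prtn3 (0.96) and Plac8 (0.96). Fcgrt was closest to the stem cell transcription factor gene Meis1 (0.99) and to Emcn (0.98), and Fcgr4 (Mnd1, Atg101 and Kmt5a, 0.90 to 0.89) and Fcgr1 (2410131K14Rik and Cep72, 0.82 and 0.81) had no gene as close. Among the members, r was 0.72 between Fcgr2b and Fcgr3, 0.88 between Fcgr2b and Fcer1g, and -0.90 between Fcgr3 and Fcgrt.

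Genes next to the members showed no call in either UREΔ comparison where they could be tested. Around the Fcgr2b, Fcgr4 and Fcgr3 cluster, the only neighbour with enough reads was Cfap126 (log2 fold change 0.32, SE 0.31 in LSKs and 0.48, SE 0.33 in GMPs; adjusted p = 0.79 and 0.49). Fcrla, an Fc receptor-like gene on the other side, had at most 18 counts in a library and none in UREΔ GMPs. Trappc5 beside Fcer2a had -0.04 (SE 0.18, adjusted p = 0.97) in LSKs and -0.30 (SE 0.17, adjusted p = 0.39) in GMPs.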

How the data were processed

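The 7 genes and the lists were chosen with earlier results of these data known. Per the study's methods, low-input unstranded libraries (up to 10 ng of RNA) were quantified by the authors with salmon and summed per gene with tximport, and the deposited values are estimated counts rounded to whole numbers (build GRCm38 per the submitters' processing notes; versions not given in the sources used here). Reads common to Fcgr2b and Fcgr3 were thus divided by a model. Counts were tested with edgeR 4.0.16 (TMM scaling, filterByExpr, quasi-likelihood, Benjamini-Hochberg adjustment over all genes tested), in a separate fit per comparison. DESeq2 (the tool of the authors, here 1.42.0), other scalings and filters, and leaving out each library were alternatives. The call rule was an adjusted p below 0.05 and a fold above 1.5, or the adjusted p alone for the interaction. CPM used TMM factors over 16 libraries. Precision is limited by 4 libraries a group; totals were 20028302 to 29128858 counts. The floor of 3 counts covers counting error only, while the SDs and SEs include the spread between libraries.

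The libraries come from 4 mice per genotype and cell type. Same-numbered libraries deviated together from their group means, with r of 0.24 to 0.71 in every pair of groups compared. From this check of the data the numbers were taken to pair the samples in the replicate block and the sign-flip tests only. The main fits and the permutation tests took no account of the pairs. Between groups, replicates 1 and 4 also deviated together (r of 0.195 to 0.398), as did replicates 2 and 3 (0.0586 to 0.284). Replicates from different sets had r of -0.592 to -0.15. The deviations within a group sum to 0, so negative values among these pairs are partly built in. Each set was also fitted alone. Named genes were the 7 genes, Spi1, called list genes (at most 8 per list and comparison, largest fold first), neighbouring genes and the 3 genes of highest r per member. Syk, Inpp5d and Tyrobp in GMPs were named for their role, and Ly6a as a sorting gene. Pax5, Ncr1, Nkg7, Mpo, F13a1, Cr2, Siglech, Itgax, Cd209a and Batf3 were named for their part in a summed level. Il5ra, Ear1 and Ear6 were named for how they passed the filter. Some genes that this rule names are not reported here. R 4.3.3 was used, and the fits were tested on simulated data.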

Additional observations from a re-analysis of the deposited data

Results flagged for a closer look

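In the main fit Fcgr2b was the member whose UREΔ effect differed between LSKs and GMPs by a test of the difference itself. With the replicate block Fcer1g (1.44) and Fcgr3 (0.97) were called in this test as well. For Fcgr2b the interaction of genotype with cell type in the main fit was 3.95 on the log2 scale (SE 0.74, edgeR adjusted p = 0.017). Its UREΔ libraries held 0 to 31 counts in LSKs and 703 to 1669 counts in GMPs. The GMP gate selects on the product of this gene, and the part of that selection in the difference cannot be told apart from the rest. No library stood apart by Dixon's test in any of 32 sets of 4 libraries (the 7 genes and the library totals in 4 groups).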

How the results depend on the processing

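Fcgr2b in LSKs was called under all alternatives tried. In LSKs 1 to 2 members were called when a library was left out. In GMPs 0 were called with upper-quartile scaling and in replicates 2 and 3 alone (Fcgr3 at 1.29 and 1.33, adjusted p = 0.057 and 0.11), 2 with the replicate block and 2 in replicates 1 and 4 alone, and 0 to 1 when a library was left out. Between UREΔ GMPs and LSKs DESeq2 called 4 (Fcgr4 and Fcer2a in addition) and replicates 2 and 3 alone 1. The interaction was called for 3 with the block, 2 in replicates 1 and 4 and 0 in replicates 2 and 3. The block changed no member's call other than those given above. For the log2 ratio of Fcgr2b to Fcgr3 the block leaves the difference as it is by construction (-6.06 in LSKs and -2.20 in GMPs), and its exact sign-flip test over 4 pairs cannot go below p = 0.125, so the call is lost. With a pseudocount of 5 the differences were -4.94 and -2.19.

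Signs turned for uncalled values only. In replicates 1 and 4 alone these were Fcgr4 in LSKs (0.53) and GMPs (0.056), Fcer1g in GMPs (0.20) and Fcgr1 between WT cell types (-0.42). For the interaction they were Fcgr4 with the block (0.022) and in replicates 2 and 3 (0.22), Fcer2a in replicates 2 and 3 (-1.74), and Fcgrt with DESeq2 (-0.011), RLE scaling (-0.0092), no filter (-0.011) and the block (-0.020). Leaving out a library gave -0.96 to 0.020 for Fcgr4 in LSKs, -0.13 to 0.40 for Fcgr1 between WT cell types, and -0.44 to 0.55 for Fcgr4 and -0.40 to 0.18 for Fcgrt in the interaction. The causes were not tested.

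Over all genes, edgeR called 930 in LSKs (1631 by DESeq2, 1433 with the block, 386 in replicates 2 and 3, 565 without WT replicate 2 to 961 without UREΔ replicate 3), 1148 in GMPs (1995, 2260, 108, and 715 without UREΔ replicate 4 to 1176 without UREΔ replicate 3), 194 in the interaction (672, 1047, 2, and 84 without UREΔ GMP replicate 4 to 283 without UREΔ GMP replicate 3), 4037 between WT cell types (2507 in replicates 2 and 3) and 3133 between UREΔ cell types (810). The median log2 fold change of all genes between cell types was -0.17 with upper-quartile scaling. Fcgr1, Fcgr4 and Fcer2a had at most 74 counts in any library, and how depth bears on them was not tested.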
